A study of Homo sapiens with 2 samples.

Results

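The DNA repair and translesion synthesis genes described here are 47 genes drawn up by symbol, with a rule that they be listed in the transcript table and average 1 FPKM or more between the libraries. All 47 met it, as did 10601 genes in all for the level. FPKM counts sequenced fragments relative to transcript length and library size, and the values of a gene's transcripts were added up. The cells were THP-1, an established human line of monocytic acute myeloid leukaemia. One culture was kept for 48 h with 2 µM OPA1, an agent named no further in the labels, and the other for 48 h with DMSO, the solvent control. The name OPA1 stands below for that agent, never for the mitochondrial gene. Each group was 1 library, so no test was possible and no difference below has a replicate check. By its title, the study asked about opioid receptors and TET enzymes, which oxidise methylated DNA, in leukaemia.

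Cells keep their genome intact by several routes. Base excision repair removes single damaged bases through a glycosylase, a nuclease and a ligase. Mismatch repair corrects errors of replication, and nucleotide excision repair cuts out short stretches that carry bulky lesions. Broken chromosomes are rejoined by end joining or copied from the sister chromatid by homologous recombination. The Fanconi anaemia proteins unhook crosslinks between the strands. Where a lesion stalls the replication fork, translesion polymerases copy past it. Much of this machinery is abundant in dividing cells, including leukaemia lines.

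The sequences below show what separates the transcripts on which the gene sums rest. For 4 members, chosen as examples, a transcript that was more abundant with OPA1 is set beside one that was more abundant with DMSO, around a coding exon that only 1 of them holds. The exon is in capitals, with 20 bases of the neighbouring exons in lower case on each side, from the GENCODE release 29 transcripts (GRCh38, transcript strand). For XRCC1, the scaffold of single-strand break repair, the exon lies at chr19:43574910-43575002 on the minus strand and has 93 bases (31 codons).
XRCC1-202: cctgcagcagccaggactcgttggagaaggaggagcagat
XRCC1-201: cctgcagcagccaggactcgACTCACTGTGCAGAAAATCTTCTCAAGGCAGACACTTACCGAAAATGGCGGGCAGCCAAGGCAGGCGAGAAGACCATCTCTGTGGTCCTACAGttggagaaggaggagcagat
For PMS2, a mismatch repair protein, the exon at chr7:6003690-6003792 on the minus strand has 103 bases, which is not a multiple of 3.
PMS2-206: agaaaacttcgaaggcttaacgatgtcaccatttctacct
PMS2-201: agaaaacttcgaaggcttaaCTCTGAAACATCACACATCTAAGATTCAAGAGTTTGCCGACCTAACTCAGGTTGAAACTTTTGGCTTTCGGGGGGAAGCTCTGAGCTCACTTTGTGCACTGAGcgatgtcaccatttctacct
For CHEK1, the checkpoint kinase activated by ATR, the exon at chr11:125627607-125627830 on the plus strand has 224 bases.
CHEK1-218: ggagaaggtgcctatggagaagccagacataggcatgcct
CHEK1-203: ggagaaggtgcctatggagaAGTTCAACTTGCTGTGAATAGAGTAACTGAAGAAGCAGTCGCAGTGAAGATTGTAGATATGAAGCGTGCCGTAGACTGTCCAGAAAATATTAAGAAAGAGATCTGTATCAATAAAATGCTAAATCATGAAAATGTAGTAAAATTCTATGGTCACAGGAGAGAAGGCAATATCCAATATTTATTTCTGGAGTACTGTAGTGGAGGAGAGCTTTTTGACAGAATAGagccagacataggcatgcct
For MRE11, the nuclease that starts the trimming of broken ends, the exon at chr11:94445810-94445893 on the minus strand has 84 bases (28 codons), and here the longer form was the more abundant one with OPA1.
MRE11-201: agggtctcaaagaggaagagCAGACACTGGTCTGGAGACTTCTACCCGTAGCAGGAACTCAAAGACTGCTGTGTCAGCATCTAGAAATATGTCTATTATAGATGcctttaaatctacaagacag
MRE11-202: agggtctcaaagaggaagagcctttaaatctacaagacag

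Promoter windows from RefSeq (GRCh38.p14) run from 250 bases before a start site to 50 bases after it, and 41 of the 47 members had at least 1 window in the table. MAD2L2 is shown because its listed transcripts begin at a pair of separate starts, and REV3L and XPA because their sums were at least 2-fold lower with OPA1. No window is printed for PAXIP1, whose sum was at least 2-fold higher. Capitals mark matches on either strand to the CCAAT box (CCAAT), the GC box (GGGCGG), an E2F motif (TTTNGCGC), the cyclic AMP response element (TGACGTCA) and the TATA box (TATAAA). GC boxes next to each other may overlap.
MAD2L2, upstream start, chr1:11691510-11691809, minus strand: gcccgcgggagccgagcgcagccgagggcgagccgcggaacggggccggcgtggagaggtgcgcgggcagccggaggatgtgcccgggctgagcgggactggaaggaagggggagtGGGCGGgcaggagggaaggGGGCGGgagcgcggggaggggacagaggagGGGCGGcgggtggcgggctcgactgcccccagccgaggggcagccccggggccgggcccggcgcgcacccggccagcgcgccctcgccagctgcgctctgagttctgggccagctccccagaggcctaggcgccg
MAD2L2, downstream start, chr1:11681099-11681398, minus strand: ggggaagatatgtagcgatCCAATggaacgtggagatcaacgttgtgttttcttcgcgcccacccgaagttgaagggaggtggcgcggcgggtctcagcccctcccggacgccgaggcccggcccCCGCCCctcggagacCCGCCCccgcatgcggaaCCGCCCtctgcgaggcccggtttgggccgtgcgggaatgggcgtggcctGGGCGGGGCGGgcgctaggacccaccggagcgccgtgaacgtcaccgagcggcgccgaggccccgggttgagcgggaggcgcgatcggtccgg
REV3L, start nearest to REV3L-202, chr6:111483169-111483468, minus strand: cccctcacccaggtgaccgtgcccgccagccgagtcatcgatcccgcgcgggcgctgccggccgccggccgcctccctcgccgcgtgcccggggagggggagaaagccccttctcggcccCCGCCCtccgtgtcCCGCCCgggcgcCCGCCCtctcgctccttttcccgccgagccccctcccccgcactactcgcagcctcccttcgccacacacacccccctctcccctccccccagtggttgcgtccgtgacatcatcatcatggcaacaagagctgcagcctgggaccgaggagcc
XPA, chr9:97697291-97697590, minus strand: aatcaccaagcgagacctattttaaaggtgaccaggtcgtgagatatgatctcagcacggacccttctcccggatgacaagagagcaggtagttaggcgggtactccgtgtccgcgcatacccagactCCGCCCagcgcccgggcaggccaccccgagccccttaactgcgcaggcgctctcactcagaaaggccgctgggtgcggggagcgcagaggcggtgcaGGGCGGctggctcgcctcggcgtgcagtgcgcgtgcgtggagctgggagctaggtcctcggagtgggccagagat
Every capital run in the upstream MAD2L2, REV3L and XPA windows is a GC box, with 3, 3 and 2 matches. The downstream MAD2L2 window held 5 GC boxes and 1 CCAAT box. Of all 35116 promoter windows in the table, 45.0% held a GC box and 34.6% a CCAAT box. The rarer motifs were in 1.79% (E2F), 1.85% (cyclic AMP response element) and 11.5% (TATA box) of all windows and in none of these 4. Of the 61 windows of members, 73.8% held a GC box and 49.2% a CCAAT box. Their shares for E2F, the cyclic AMP response element and the TATA box were 3.28%, 9.84% and 1.64%.

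The summed repair genes were at close levels in both libraries. With OPA1, 21 of the 47 members were higher and 26 were lower than with DMSO. The share that was higher, 44.7%, compares with 49.9% of all genes, of which 50.1% were lower. Log2 ratios are of OPA1 over DMSO after adding 1 FPKM to both values, which shrinks the differences of low genes. The median log2 ratio of the members was -0.02, that of all genes was -0.00024, and 21 members lay between the lower and upper quartile of all genes (-0.15 to 0.16), called their middle range below. PAXIP1 was the 1 member higher by 2-fold or more, and REV3L and XPA were the 2 members lower by as much, together 6.38% of the members, against 3.96% of all genes (1.97% higher and 1.99% lower). At 1.5-fold the members numbered 5, or 10.6%, against 10.5% of all genes. The shares at both sizes were therefore near those of all genes. In bulk RNA, fewer cells that express a gene and less RNA per cell cannot be told apart.

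**Figure D1:**
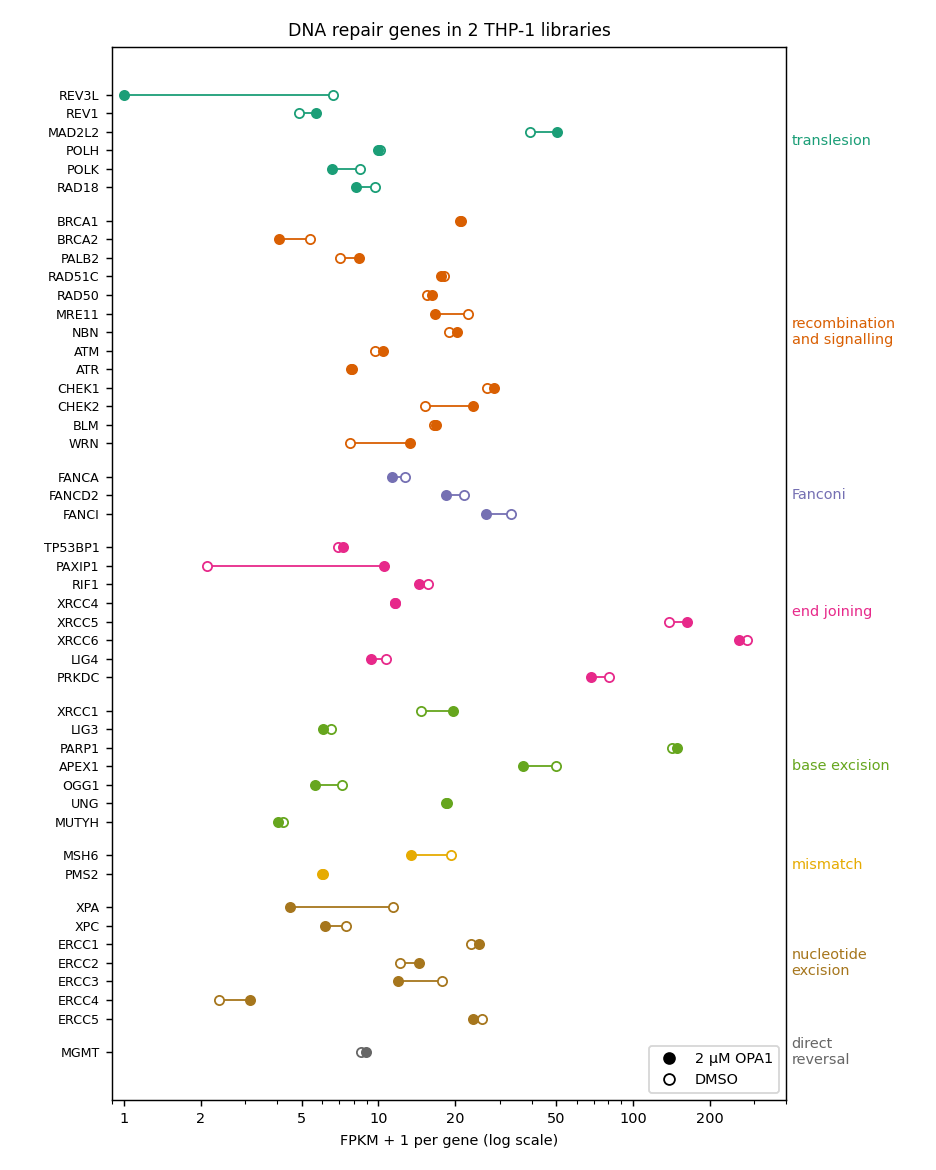
FPKM + 1 (log scale) of each of the 47 members, with filled circles for the OPA1 library, open circles for the DMSO library and colours for repair groups. Most circles nearly coincide, with wide gaps for REV3L (listed at 0 with OPA1), PAXIP1 and XPA.

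The 3 genes past 2-fold each had a single listed transcript. They were 3 of the 10 members with 1 listed transcript, whereas 0 of the 37 members with more were past 2-fold. Among all genes the shares were 3.51% of those with 1 listed transcript and 4.18% of those with more. The reference annotation (GENCODE release 29) holds 14 transcripts of REV3L, 9 of PAXIP1 and 4 of XPA, of which 5, 3 and 1 are protein-coding. The table lists protein-coding transcripts that reached 0.5 FPKM in at least 1 library, so reads given to other transcripts of these genes are not in the sums.

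REV3L was the 1 translesion gene past 2-fold. REV3L encodes the catalytic subunit of polymerase zeta, which extends DNA past lesions (chromosome 6, 111620234 to 111804414, hg19). Its transcript REV3L-202 was listed at 0 FPKM with OPA1 and was at 5.60 FPKM with DMSO. A listed 0 can be a failed estimate, so no fold is given. MAD2L2, the accessory subunit of the same polymerase and also part of the shieldin complex at broken ends, was at 49.4 FPKM with OPA1 and 38.3 FPKM with DMSO (log2 ratio 0.36). REV1, the scaffold polymerase that recruits polymerase zeta, was at 4.69 FPKM with OPA1 and 3.86 FPKM with DMSO. Both of these partners were thus on the opposite side to REV3L. POLH, polymerase eta, which copies past ultraviolet lesions, was at 8.92 FPKM with OPA1 and 9.16 FPKM with DMSO. POLK, polymerase kappa, was at 5.57 FPKM with OPA1 and 7.46 FPKM with DMSO. RAD18, the ubiquitin ligase that marks PCNA for the switch to these polymerases, was at 7.17 FPKM with OPA1 and 8.69 FPKM with DMSO. The median log2 ratio of the 6 translesion members was -0.14, and 2 of them (33.3%) were higher, against 49.9% of all genes.

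PAXIP1 had the widest positive ratio of the members. PAXIP1 is a scaffold with BRCT domains that binds TP53BP1 at broken ends and also works with histone methyltransferases (chromosome 7, 154735401 to 154794682, hg19). It was at 9.502 FPKM with OPA1 and 1.122 FPKM with DMSO, a plain ratio of 8.47. Its partners at the break were nearly level. TP53BP1, which shields ends from trimming, was at 6.27 FPKM with OPA1 and 5.91 FPKM with DMSO, and RIF1, its effector, was at 13.4 FPKM with OPA1 and 14.7 FPKM with DMSO. PAGR1, which forms a complex with PAXIP1 and is not a member, was at 21.2 FPKM with OPA1 and 20.6 FPKM with DMSO.

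No other end-joining member was past 2-fold, and XRCC6, XRCC5 and PRKDC were among the 4 members with a mean of at least 50 FPKM. XRCC6 (Ku70) was at 259 FPKM with OPA1 and 280.4 FPKM with DMSO, the highest level of any member. XRCC5 (Ku80), which forms the ring-shaped end-binding complex with it, was at 162 FPKM with OPA1 and 137 FPKM with DMSO. XRCC5 was thus above the middle range of all genes (log2 ratio 0.24), while XRCC6 lay inside it (-0.11). PRKDC, the catalytic subunit of DNA-dependent protein kinase, was at 67.5 FPKM with OPA1 and 79.7 FPKM with DMSO. LIG4, the ligase of this route, was at 8.36 FPKM with OPA1 and 9.67 FPKM with DMSO. XRCC4, its binding partner, was level at 10.6 FPKM with OPA1 and 10.6 FPKM with DMSO. The median log2 ratio of the 8 members of this group was -0.06, and 3 of them (37.5%) were higher, against 49.9% of all genes.

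**Figure D2:**
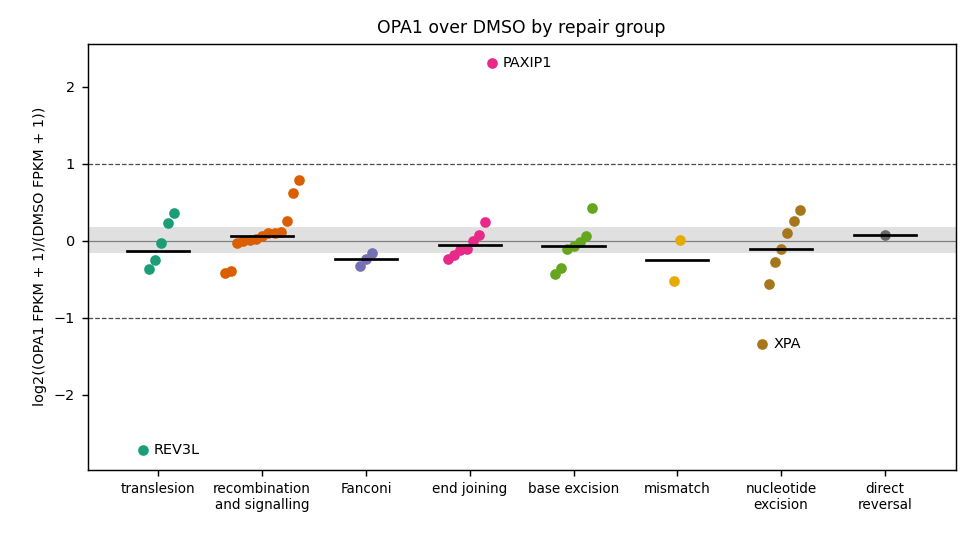
Log2 ratio of OPA1 over DMSO (after adding 1 FPKM) of each member, by repair group; black bars are group medians, the grey band is the middle range of all genes (-0.15 to 0.16) and dashed lines mark 2-fold. Only PAXIP1, REV3L and XPA lie outside the dashed lines.

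XPA was the only nucleotide excision member past 2-fold. XPA verifies the damaged strand and positions the nucleases (chromosome 9, 100437191 to 100459639, hg19). It was at 3.50 FPKM with OPA1 and 10.4 FPKM with DMSO, 2.98-fold lower. ERCC3 (XPB), a helicase of the repair and transcription factor TFIIH, was at 11.0 FPKM with OPA1 and 16.7 FPKM with DMSO (log2 ratio -0.57). ERCC2 (XPD), the other TFIIH helicase, was at 13.5 FPKM with OPA1 and 11.1 FPKM with DMSO (log2 ratio 0.25). The TFIIH helicases were thus on opposite sides. XPC, the damage sensor, was at 5.14 FPKM with OPA1 and 6.45 FPKM with DMSO. ERCC4 (XPF), the nuclease that cuts on the 5′ side, had the lowest mean over both libraries of any member, at 2.13 FPKM with OPA1 and 1.37 FPKM with DMSO. Its partner ERCC1 was at 23.7 FPKM with OPA1 and 22.0 FPKM with DMSO, and ERCC5 (XPG), which cuts on the 3′ side, was at 22.5 FPKM with OPA1 and 24.5 FPKM with DMSO. The median over the 7 members was -0.11, with 3 higher (42.9%, against 49.9% of all genes) and 4 lower.

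Recombination and damage signalling held 13 members, 9 of them (69.2%) higher with OPA1, with a median log2 ratio of 0.06 and none past 2-fold. Of all genes, 49.9% were higher. The 48 other recombination and signalling genes measured leaned slightly the other way, with 21 higher, 27 lower and a median of -0.02. WRN, a helicase and exonuclease of the RecQ family, had the largest ratio of the 13 members, at 12.3 FPKM with OPA1 and 6.73 FPKM with DMSO (1.83-fold, log2 ratio 0.79). CHEK2, the kinase downstream of ATM, was 1.57-fold higher, at 22.5 FPKM with OPA1 and 14.3 FPKM with DMSO. BLM, another RecQ helicase, was level at 15.8 FPKM with OPA1 and 15.5 FPKM with DMSO. The kinases ATM and ATR, which signal broken ends and stalled forks, were also nearly level. ATM was at 9.46 FPKM with OPA1 and 8.69 FPKM with DMSO, and ATR was at 6.86 FPKM with OPA1 and 6.81 FPKM with DMSO. CHEK1 was at 27.4 FPKM with OPA1 and 25.6 FPKM with DMSO.

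The MRE11 complex, which senses broken ends, was uneven. MRE11 was at 15.7 FPKM with OPA1 and 21.5 FPKM with DMSO (log2 ratio -0.43). RAD50, which tethers the ends, was at 15.2 FPKM with OPA1 and 14.5 FPKM with DMSO, and NBN, which recruits ATM, was at 19.3 FPKM with OPA1 and 17.9 FPKM with DMSO. Among the recombination mediators, BRCA1 was at 19.9 FPKM with OPA1 and 20.1 FPKM with DMSO. PALB2, which joins BRCA1 to BRCA2, was at 7.41 FPKM with OPA1 and 6.07 FPKM with DMSO. BRCA2 was at 3.06 FPKM with OPA1 and 4.36 FPKM with DMSO (log2 ratio -0.40). RAD51C, which acts in strand exchange, was at 16.7 FPKM with OPA1 and 17.1 FPKM with DMSO. MRE11 in its complex and BRCA2 in its chain were thus lower, while their partners were level or higher.

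All 3 Fanconi anaemia members were lower with OPA1 in the sums over all listed transcripts, but FANCI was higher over complete coding models alone (log2 ratio 1.65). Of the 16 other Fanconi genes measured, 7 were higher and 9 lower, with a median of -0.02, and 50.1% of all genes were lower. FANCA, of the core ubiquitin ligase, was at 10.3 FPKM with OPA1 and 11.7 FPKM with DMSO. FANCD2, of the clamp that is ubiquitinated on DNA, was at 17.4 FPKM with OPA1 and 20.6 FPKM with DMSO. Its clamp partner FANCI was at 25.5 FPKM with OPA1 and 32.2 FPKM with DMSO. Their log2 ratios were -0.16, -0.24 and -0.33.

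In base excision and single-strand break repair 2 of 7 members (28.6%) were higher, against 49.9% of all genes, with a median log2 ratio of -0.07. Of the 19 other genes of this group measured, 9 were higher and 10 lower, with a median of -0.02. PARP1, the sensor of nicks, was abundant and level at 148 FPKM with OPA1 and 142 FPKM with DMSO. APEX1, the main abasic site nuclease, was at 35.9 FPKM with OPA1 and 48.97 FPKM with DMSO (log2 ratio -0.44). XRCC1 was at 18.7 FPKM with OPA1 and 13.7 FPKM with DMSO (log2 ratio 0.42), and its partner LIG3, a ligase, was at 5.03 FPKM with OPA1 and 5.48 FPKM with DMSO. The glycosylases start the route by removing the base. Of these, OGG1, which removes oxidised guanine, was at 4.63 FPKM with OPA1 and 6.21 FPKM with DMSO. UNG, which removes uracil, was at 17.4 FPKM with OPA1 and 17.6 FPKM with DMSO. MUTYH, which removes adenine placed opposite oxidised guanine, was at 3.04 FPKM with OPA1 and 3.23 FPKM with DMSO. Over complete coding models MUTYH was on the other side, at 2.97 FPKM with OPA1 and 2.13 FPKM with DMSO.

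The 2 mismatch repair members differed at the level of sums, with 1 lower and 1 level. MSH6, which recognises mismatches, was at 12.5 FPKM with OPA1 and 18.3 FPKM with DMSO (log2 ratio -0.52). PMS2 was level at 5.07 FPKM with OPA1 and 5.02 FPKM with DMSO. MGMT, which takes the alkyl group off guanine directly, was at 7.97 FPKM with OPA1 and 7.56 FPKM with DMSO.

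In some members the signal sat largely on different transcripts in each library. The exchange of a gene is the percentage of its FPKM that lay on different listed transcripts in the libraries compared. It was over 30% in 13 of the 47 members (27.7%), against 19.0% of all genes. Among those with at least 2 listed transcripts it was over 30% in 13 of 37 members (35.1%), against 27.9% of all such genes. All 13 had several listed transcripts, and 6 of them had sums inside the middle range of all genes. These values come from 1 library each, and the division of a gene's reads among transcripts was the authors'.

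**Figure D3:**
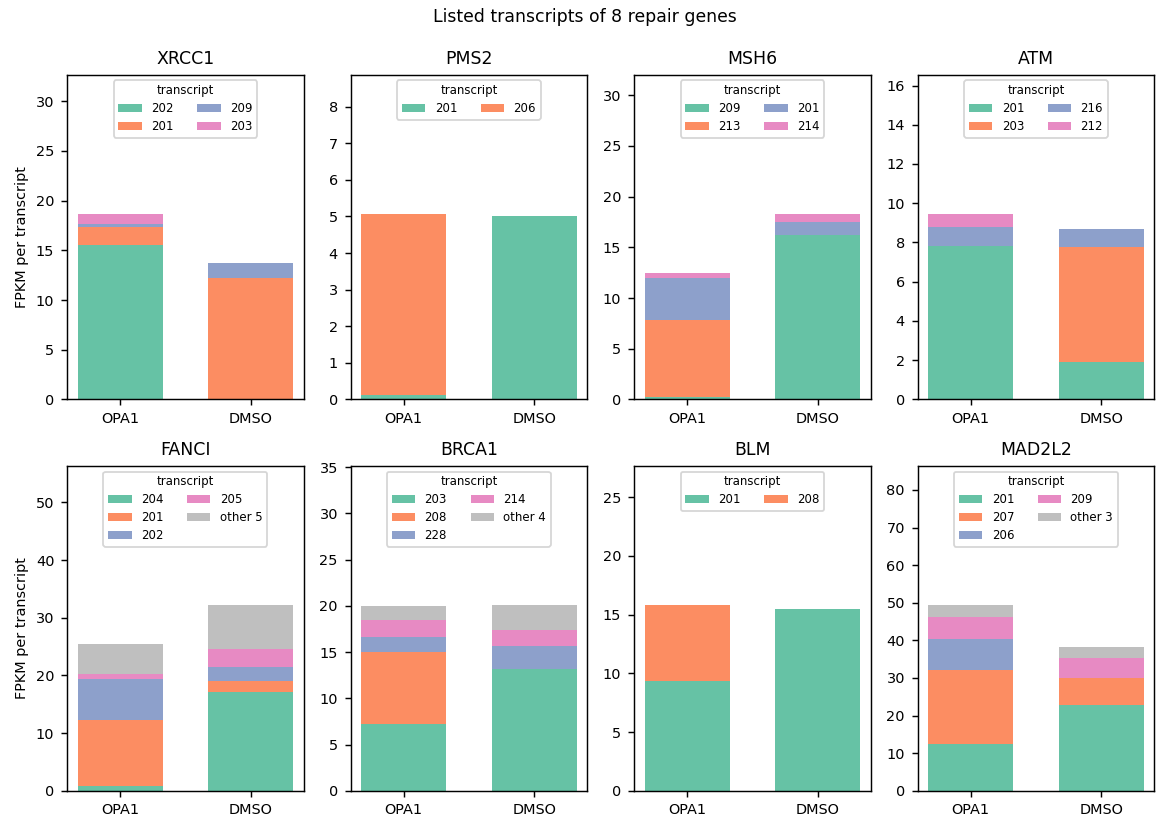
FPKM of the listed transcripts of 8 members, stacked, with the OPA1 library on the left and the DMSO library on the right; numbers in the legends are the ends of the transcript names, and each panel has its own scale. The bars of PMS2, BRCA1 and BLM are of nearly equal height but differ in which transcript fills them.

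PMS2 had the widest exchange, 97.8%. PMS2-206 was at 4.96 FPKM with OPA1 and listed at 0 with DMSO, while PMS2-201 was at 0.11 FPKM with OPA1 and 5.02 FPKM with DMSO. PMS2-206 lacks the 103-base exon printed above, and its annotated coding sequence has 2268 bases against 2586 bases for PMS2-201, which is 106 codons shorter. PMS2 has 10 annotated pseudogenes of the same name in the reference. Whether reads were divided among such copies was not tested. XRCC1 followed at 88.4%. XRCC1-202, which lacks the 93-base exon, was at 15.5 FPKM with OPA1 and listed at 0 with DMSO. XRCC1-201, which holds that exon, was at 1.87 FPKM with OPA1 and 12.3 FPKM with DMSO. Their coding sequences have 1806 and 1899 bases, so reading frame is kept across the skipped exon.

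BLM, BRCA1 and CHEK1 each showed a shorter coding form that was prominent with OPA1. BLM-208, which lacks 2 coding exons (393 bases, 131 codons), was at 6.48 FPKM with OPA1 and listed at 0 with DMSO. BLM-201 was at 9.34 FPKM with OPA1 and 15.5 FPKM with DMSO. BRCA1-208, a model 1164 codons shorter than BRCA1-203 (2097 against 5589 coding bases), was at 7.81 FPKM with OPA1 and listed at 0 with DMSO. BRCA1-203 was at 7.24 FPKM with OPA1 and 13.1 FPKM with DMSO. CHEK1-218, which lacks 2 exons, among them the 224-base one printed above, and has 1146 coding bases against 1428 in CHEK1-203, was at 13.9 FPKM with OPA1 and 3.97 FPKM with DMSO. CHEK1-203 was at 2.61 FPKM with OPA1 and 7.18 FPKM with DMSO. It is 1 of 4 listed transcripts with the same coding sequence, which together were at 9.16 FPKM with OPA1 and 15.4 FPKM with DMSO. MRE11 went the other way. MRE11-201, with the 84-base exon, was at 11.3 FPKM with OPA1 and 9.11 FPKM with DMSO, and MRE11-202, without it, was at 2.28 FPKM with OPA1 and 9.10 FPKM with DMSO.

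FANCI and FANCD2, which form 1 clamp, also differed in transcript make-up. FANCI-204, a model marked as incomplete in its coding sequence, was at 0.87 FPKM with OPA1 and 17.1 FPKM with DMSO. The complete model FANCI-201 was at 11.4 FPKM with OPA1 and 2.05 FPKM with DMSO, and FANCI-202 was at 7.005 FPKM with OPA1 and 2.31 FPKM with DMSO. Over the 3 complete models the sum was 19.5 FPKM with OPA1 and 5.51 FPKM with DMSO, 3.54-fold higher, whereas the sum over all models was lower with OPA1. The direction for FANCI therefore turns on whether incomplete models are counted. In FANCD2 the exchange, 35.4%, lay between complete models that differ by 20 codons in length. FANCD2-201 was at 14.1 FPKM with OPA1 and 9.64 FPKM with DMSO, and FANCD2-202 was at 1.57 FPKM with OPA1 and 9.18 FPKM with DMSO. Incomplete models made up 51 of the 175 listed transcripts of members, in 21 genes, and held 5.0% of the members' FPKM with OPA1 and 7.08% with DMSO.

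Merging transcripts with the same annotated coding sequence left 9 of the 13 members over 30%. That is 24.3% of the 37 members with at least 2 listed transcripts, against 21.3% of all such genes. The other 4 (ATM, LIG4, MSH6 and MAD2L2) traded transcripts that mostly encode the same protein. In ATM, the exchange was 67.4% between transcripts and 6.85% between coding sequences. ATM-201 was at 7.81 FPKM with OPA1 and 1.91 FPKM with DMSO, and ATM-203, with the same coding sequence and an extra 88-base exon, was at 0.00023 FPKM with OPA1 and 5.86 FPKM with DMSO. LIG4-203 was at 4.32 FPKM with OPA1 and listed at 0 with DMSO, and LIG4-202, also with the same coding sequence, was at 0.01 FPKM with OPA1 and 3.80 FPKM with DMSO. For MSH6 the merged exchange was 25.9%. MSH6-213 was at 7.57 FPKM with OPA1 and 0.01 FPKM with DMSO, while MSH6-209 was at 0.23 FPKM with OPA1 and 16.2 FPKM with DMSO. Both have the same 3174 coding bases, 302 codons fewer than MSH6-201, which was itself at 4.14 FPKM with OPA1 and 1.33 FPKM with DMSO. MUTYH was not among these 4, since its merged exchange was 31.9%. It had 6 listed transcripts and an exchange of 35.6% between them. Most of this lay on the incomplete model MUTYH-227, at 0.07 FPKM with OPA1 and 1.11 FPKM with DMSO.

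**Figure D4:**
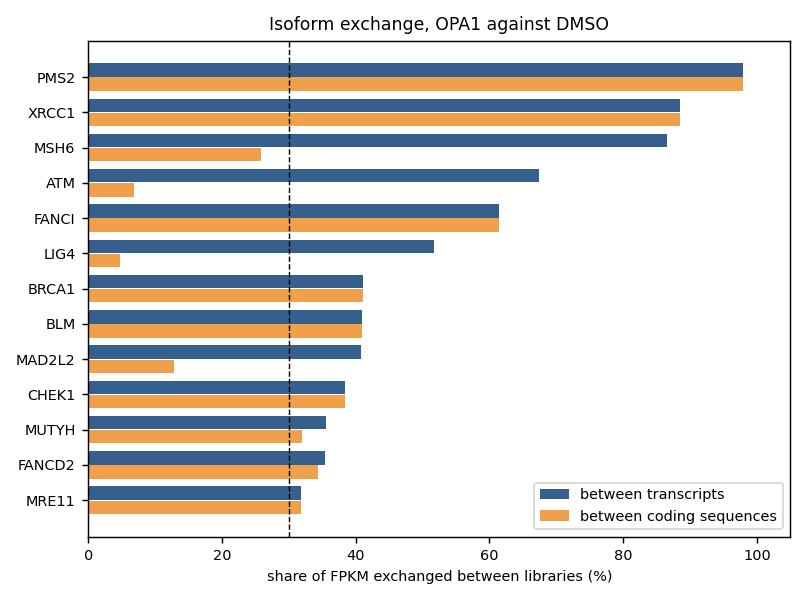
Percentage of FPKM exchanged between libraries in the 13 members over 30% (dashed line), between transcripts (blue) and between annotated coding sequences (orange). In MSH6, ATM, LIG4 and MAD2L2 the orange bar falls under 30%; in PMS2 and XRCC1 both bars exceed 88%.

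MAD2L2 differed by start site. The 4 transcripts from the downstream start summed to 27.8 FPKM with OPA1 and 15.3 FPKM with DMSO (1.81-fold). The 3 transcripts from the upstream start summed to 21.5 FPKM with OPA1 and 22.9 FPKM with DMSO. The downstream start thus gave 56.4% of the gene's FPKM with OPA1 and 40.1% with DMSO, and the higher MAD2L2 sum came from it. The GENCODE starts of MAD2L2-201 and MAD2L2-207 lie 91 and 66 bases from the RefSeq starts of the promoter windows printed above. Within each start there were further shifts. Upstream, MAD2L2-206 was at 8.05 FPKM with OPA1 and listed at 0 with DMSO, and MAD2L2-201 was at 12.3 FPKM with OPA1 and 22.9 FPKM with DMSO. Downstream, MAD2L2-207 was at 19.9 FPKM with OPA1 and 7.08 FPKM with DMSO. MAD2L2-201 and MAD2L2-207 share the same coding sequence of 633 bases.

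A wider list of 130 other repair genes gave the same picture of close sums. Of these, 57 were higher (43.8%, against 49.9% of all genes) and 73 lower. Their median log2 ratio was -0.02, and 2 genes lay above and 3 below the 2-fold limits, together 3.85% of the list, near the 3.96% of all genes. Higher were ABRAXAS1 and BRCC3, subunits of the BRCA1-A complex that trims ubiquitin chains at breaks. ABRAXAS1 was at 3.82 FPKM with OPA1 and 1.199 FPKM with DMSO. BRCC3 was at 23.6 FPKM with OPA1 and 10.9 FPKM with DMSO, with an exchange of 72.4%. BRCC3-201 was at 18.2 FPKM with OPA1 and 0.63 FPKM with DMSO, and BRCC3-205 at 0.76 FPKM with OPA1 and 0.27 FPKM with DMSO. In the other direction, BRCC3-204 was at 4.57 FPKM with OPA1 and 6.57 FPKM with DMSO, and BRCC3-202 was listed at 0 with OPA1 and at 3.40 FPKM with DMSO. Of the same complex, BABAM1 and UIMC1 were not past 2-fold, with BABAM1 at 37.5 FPKM with OPA1 and 31.1 FPKM with DMSO and UIMC1 at 8.55 FPKM with OPA1 and 12.7 FPKM with DMSO. Lower were ERCC8, FAN1 and ATRIP. ERCC8 (CSA), of transcription-coupled repair, was at 1.54 FPKM with OPA1 and 7.13 FPKM with DMSO. FAN1, a nuclease of crosslink repair, was at 1.54 FPKM with OPA1 and 6.66 FPKM with DMSO, and FAN1-201 was listed at 0 with OPA1 and at 3.43 FPKM with DMSO. ATRIP, the partner of ATR, was at 0.38 FPKM with OPA1 and 3.29 FPKM with DMSO, whereas ATR itself was level.

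The largest ratios in other groups of that list were smaller. SHPRH, a ubiquitin ligase listed here with the translesion genes, was at 5.13 FPKM with OPA1 and 7.12 FPKM with DMSO. SMUG1, a uracil glycosylase, was at 4.14 FPKM with OPA1 and 7.19 FPKM with DMSO. POLM, an end-joining polymerase, was at 2.02 FPKM with OPA1 and 1.04 FPKM with DMSO. ALKBH2, which reverses alkylation, was at 3.54 FPKM with OPA1 and 5.84 FPKM with DMSO.

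Markers of the cell type and of division were close in the libraries. All 14 proliferation genes on a short list were within 2-fold, with a median log2 ratio of -0.01 and sums of 1253 FPKM with OPA1 and 1254 FPKM with DMSO. Of 14 markers of THP-1 cells 13 were listed, none past 2-fold, summing to 2119 FPKM with OPA1 and 1840.2 FPKM with DMSO. The remaining marker, CD14, was not listed. No marker of T, NK, B, erythroid, epithelial or fibroblast cells on the lists had a mean of 1 FPKM. Read numbers are not known, and intervals for counting error were not computed. Differences of 2-fold were more frequent among low genes, at 6.24% of genes with a mean of 1 to 2 FPKM, 5.25% at 2 to 5, 4.56% at 5 to 10, 3.7% at 10 to 20, 2.21% at 20 to 50 and 1.18% at 50 FPKM or more. REV3L falls in the range of 2 to 5 FPKM, PAXIP1 and XPA in that of 5 to 10, and XRCC6, XRCC5, PARP1 and PRKDC in the highest.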

How the data were processed

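Total RNA of 1 THP-1 culture per group was sequenced as Illumina libraries, per the labels' protocols. The authors deposited FPKM per transcript, per the file headers. HISAT, StringTie, edgeR and hg19 are named in the submitters' processing notes without roles; the sources used here do not state strandedness, so overlapping and antisense genes cannot be told apart. The 29373 rows are protein-coding transcripts with at least 0.5 FPKM in 1 library, which was tested on the table. Depth is unknown, so no count test was run. FPKM were summed per symbol, those averaging 1 FPKM or more were kept, and log2 ratios were taken after adding 1 FPKM. Every member was named, transcripts were given for members past 2-fold or with an exchange over 30% (plus examples), and, of the 130 other repair genes, those past 2-fold and the largest ratio of each group, apart from mismatch repair, whose gene is not reported here. Of 139 symbols drawn up for that list, 5 found no match (among them REV7 and PTIP, other names of MAD2L2 and PAXIP1). PAGR1, BABAM1 and UIMC1 were named after their values were seen. Coding sequences, exons and incomplete models came from GENCODE release 29, by transcript ID (175 of 175 member transcripts). Members and lists were chosen with earlier results of these data known. The arithmetic of ratios and exchange was tested on simulated data, made from the DMSO values with known changes and no added noise. That test left out the added 1 FPKM and cannot speak to measurement error. Sums and ratios were computed with pandas 2.3.3 on numpy 2.4.6 (Python 3.11.15), and plots were drawn with matplotlib 3.10.9.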

Additional observations from a re-analysis of the deposited data

How the results depend on the processing

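Of 213 values recomputed under alternative settings, 193 kept their call (for a single gene the same sign and side of 2-fold, for a count within 1.5 times), 18 moved and 2 fell under 2-fold; no gene past 2-fold changed sign. A median was taken as moved when it shifted by over 0.156 on the log2 scale, the semi-interquartile range of all genes. A pseudocount of 0.1 FPKM, no minimum level, and centring on the median gene or on the mean trimmed by 30%, moved no count by over 1.5 times. With a minimum mean of 5 FPKM, 1 member was 2-fold lower and 1 other repair gene was past 2-fold. The size of a single ratio could still shift, as for REV3L (-2.72 to -5.83), BRCC3 (1.04 to 3.56) and ATRIP (-1.54 to -2.83). For REV3L, listed at 0 with OPA1, the ratio depends on the pseudocount and is not a measured fold. With libraries rescaled to 1000000, 9 other repair genes were past 2-fold. Taking the most abundant transcript of each gene, 5 members were 2-fold higher, 5 were 2-fold lower and 12 other repair genes were past 2-fold, the mismatch repair median was -3.12 and that of nucleotide excision repair changed sign to 0.10. With transcripts above 0 in both libraries only, 4 members were 2-fold lower, and the medians of base excision and mismatch repair were -0.25 and -1.48. FAN1 was under 2-fold in these last 2 settings (log2 ratios -0.63 and -0.74). Genes with an exchange of at most 10% left 23 members, of which 11 were higher and 1 was 2-fold lower, with 2 other repair genes past 2-fold and a nucleotide excision median of -0.28; fewer genes enter by construction. With means in place of medians, translesion synthesis was at -0.46 and end joining at 0.24. Chosen after seeing the data, complete coding models alone gave 2 members 2-fold higher (PAXIP1 and FANCI), and 6 members changed direction: FANCI, MUTYH, BRCA1 and RAD51C were then higher (log2 ratios 1.65, 0.34, 0.06 and 0.01) and ATR and TP53BP1 lower (-0.12 and -0.01). The cause of these shifts was not tested beyond what each setting removes. No paired analysis was possible because each group is 1 library. Unknown depth limits every value of a low transcript. Annotated pseudogenes, as for PMS2 (10), CHEK2 (4) and XRCC6 (5), leave the division of reads uncertain, and their likeness in sequence was not tested.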
